A study of Mus musculus with 6 samples.

Results

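The Cyp4a fatty acid hydroxylases are a family of cytochrome P450 genes that lie side by side on mouse chromosome 4. The 6 members described here are Cyp4a14, Cyp4a10, Cyp4a31, Cyp4a32, Cyp4a12a and Cyp4a12b, found by gene name among the 34745 genes of the deposited table. All 6 passed the filter on low counts that left 12556 genes for testing, and the lowest raw count of any member in any library was 148 (Cyp4a32, WT 2).

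RNA was sequenced from the liver of C57BL/6 mice at 12 weeks of age. The 3 libraries called HKO carry the genotype label Sox9HKO, and the 3 libraries called WT come from Sox9f/f mice, which carry floxed Sox9 alleles with no knockout label. All 6 libraries were taken at 48 h after PHx, partial hepatectomy, in which surgery takes out some liver lobes and the rest regrows, so there is no unoperated group. The comparison asks how hepatic mRNA after PHx differs with the Sox9 genotype, Sox9 being a transcriptional regulator known from biliary cells and from progenitor-like hepatocytes. The Cre line and its promoter, the sex of the mice, the hour of collection and whether whole liver or isolated hepatocytes were used are not given in the sources used here. Whether the 3 libraries of a group are 3 animals is not stated in the labels either, so the p-values below reflect only how far these libraries spread.

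Cyp4a enzymes sit in the endoplasmic reticulum and place a hydroxyl group on the terminal (omega) carbon of fatty acids, using electrons passed on by cytochrome P450 reductase. Alcohol and aldehyde dehydrogenases then turn the product into a dicarboxylic acid, which peroxisomes shorten. The same chemistry on arachidonic acid gives 20-HETE, a lipid mediator. In liver, Cyp4a10 and Cyp4a14 are textbook targets of PPAR-alpha, the nuclear receptor that fatty acids activate during fasting, while the Cyp4a12 genes are known for higher expression in males.

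The libraries held 16659778 to 21168233 counts. Sox9 was lower in HKO, at 4.30 to 6.34 CPM against 6.94 to 13.7 CPM in WT (adjusted p = 0.0284 by edgeR), CPM being counts scaled to a common library total, here by the TMM method. This call was lost without HKO 2 (adjusted p = 0.0503 by edgeR) and also without HKO 3, WT 2 or WT 3 (up to 0.0975). HKO 2 stood apart from the other 5. Mitochondrial genes took 25.9% of its counts and 12.1% to 16.3% of the others. The female transcript Xist was at 72.5 CPM in HKO 2 and at 0.107 to 0.333 CPM elsewhere, while the Y-linked gene Ddx3y was at 30.1 CPM in HKO 2 and 42.1 to 66.6 CPM elsewhere, so transcripts of both sexes were present in this library. Its pancreatic acinar markers, a list added after these values were seen, summed to 325 CPM, against 0 to 1.29 CPM in the others. Member values are therefore given with and without HKO 2. All 12 hepatocyte markers were detected and tested, and they summed to 101278 to 107342 CPM in HKO and 105758 to 128071 CPM in WT. Kidney tubule markers, also listed afterwards and relevant because the kidney expresses Cyp4a genes, summed to at most 1.67 CPM in any library.

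How well short reads can tell the members apart differs between them, and the sequences show why each member is read with its closest copies. On the GRCm38 build the members run along chromosome 4 in the order Cyp4a12a (115299046 to 115332815), Cyp4a12b (115411624 to 115439034), Cyp4a14 (115486200 to 115496142), Cyp4a10 (115518264 to 115533649), Cyp4a31 (115563649 to 115579015) and Cyp4a32 (115600969 to 115621602). Cyp4a14 is on the minus strand and the other 5 on the plus strand. Their longest coding transcripts in the GENCODE M21 annotation have 12 exons, or 13 in Cyp4a10, and coding regions of 1524 to 1530 bases. No exon of another annotated gene overlaps theirs. The first set of sequences covers coding bases 106 to 165, all in exon 1, counted from the A of the start codon. It is the stretch of 60 bases in which Cyp4a10 and Cyp4a31 differ most. Each is written 5′ to 3′ on the coding strand, and capitals mark bases that differ from Cyp4a10.
Cyp4a10: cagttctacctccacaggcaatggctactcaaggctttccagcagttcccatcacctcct
Cyp4a31: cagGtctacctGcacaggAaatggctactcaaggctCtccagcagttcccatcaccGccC
Cyp4a32: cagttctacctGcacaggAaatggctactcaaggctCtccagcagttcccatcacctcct
Cyp4a14: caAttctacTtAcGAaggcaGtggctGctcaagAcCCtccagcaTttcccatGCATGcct

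These lines lie at chr4:115518427-115518486 (Cyp4a10), chr4:115563822-115563881 (Cyp4a31), chr4:115601080-115601139 (Cyp4a32) and, on the minus strand, chr4:115495949-115496008 (Cyp4a14). Even here Cyp4a31 differs from Cyp4a10 at 6 of 60 bases and Cyp4a32 at 3, while Cyp4a14 differs at 16. The second set is the same kind of stretch for the Cyp4a12 copies, coding bases 624 to 683 across the junction of exons 5 and 6. Capitals mark bases that differ from Cyp4a12a.
Cyp4a12a: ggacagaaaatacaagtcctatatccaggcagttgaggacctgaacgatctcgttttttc
Cyp4a12b: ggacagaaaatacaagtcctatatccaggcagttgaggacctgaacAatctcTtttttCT

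Only 4 bases separate the Cyp4a12 copies in the window where they differ most. Over the whole coding region Cyp4a12a and Cyp4a12b were identical at 98.5% of bases (23 differences, with an identical run of 342 bases). Cyp4a10 was identical to Cyp4a32 at 97.2% and to Cyp4a31 at 96.6%. Cyp4a14 was 75.1% to 76.0% identical to every other member. Of all distinct stretches of 100 bases in the annotated transcripts, 35.8% of those of Cyp4a12a and 36.2% of those of Cyp4a12b also occurred in another gene. The share was 12.2% for Cyp4a10, 7.33% for Cyp4a31, 18.2% for Cyp4a32 and 0% for Cyp4a14. With stretches of 150 bases it was 25.6% and 25.9% for the Cyp4a12 copies and 3.54% to 6.96% for Cyp4a10, Cyp4a31 and Cyp4a32. The read length and the handling of reads that match several genes are not given in the sources used here. The split between near-identical copies is therefore uncertain, and their sums are given beside them.

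**Figure D1:**
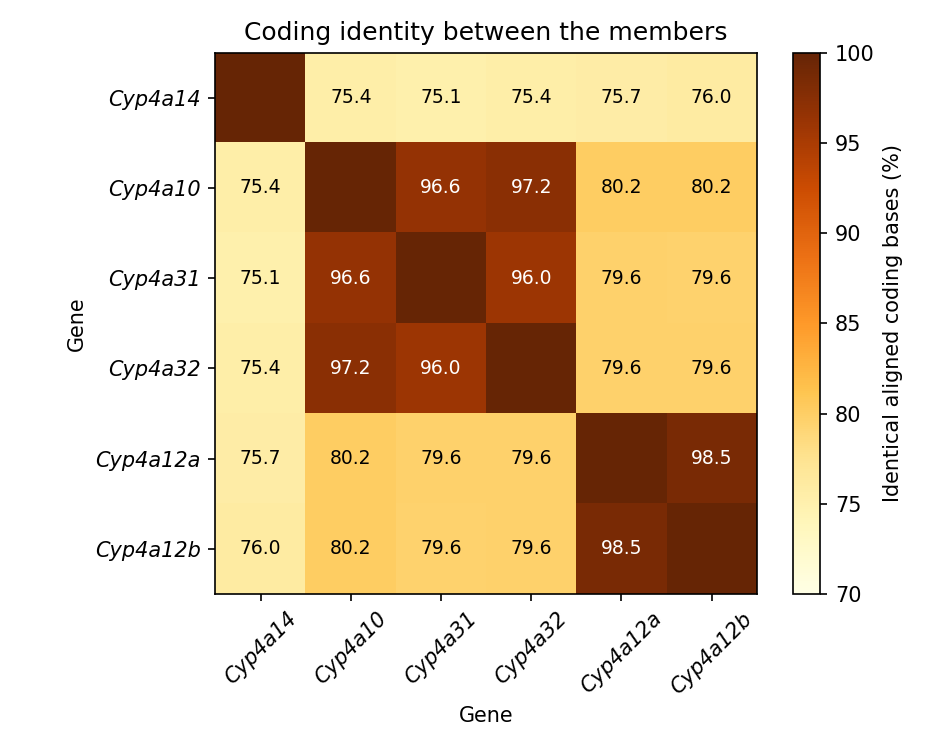
Percentage of identical bases between the coding regions of each pair of members, computed from GENCODE M21 transcripts (colour scale from 70% to 100%). The darkest cells are Cyp4a12a with Cyp4a12b (98.5%) and the trio of Cyp4a10, Cyp4a31 and Cyp4a32 (96.0% to 97.2%), while Cyp4a14 is near 75% with each.

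All 6 members were higher in HKO than in WT. Cyp4a14 rose 11.2-fold, Cyp4a10 7.72-fold, Cyp4a31 4.66-fold, Cyp4a12b 4.23-fold, Cyp4a32 3.48-fold and Cyp4a12a 2.57-fold. By edgeR's quasi-likelihood test with Benjamini-Hochberg adjustment over all genes tested, 6 of 6 members were called higher at an adjusted p below 0.05, where 12.1% of the 12556 genes were. All 6 were also called and at least 2-fold higher, which held for 4.21% of genes, and 4 were at least 4-fold higher, against 1.05% of genes. In each of the 6 the lowest HKO value lay above the highest WT value, as in 22.6% of all genes, and groups did not overlap in either direction in 44.2%. The median log2 fold change was 2.15 over the members and 0.02 over all genes tested. The members and the gene lists were chosen with earlier results of these data known, including the rises of Cyp4a10, Cyp4a14 and Cyp4a31. Shares set beside those of all genes are therefore a description. In bulk RNA, more cells that express a gene and more of its RNA per cell cannot be told apart.

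**Figure D2:**
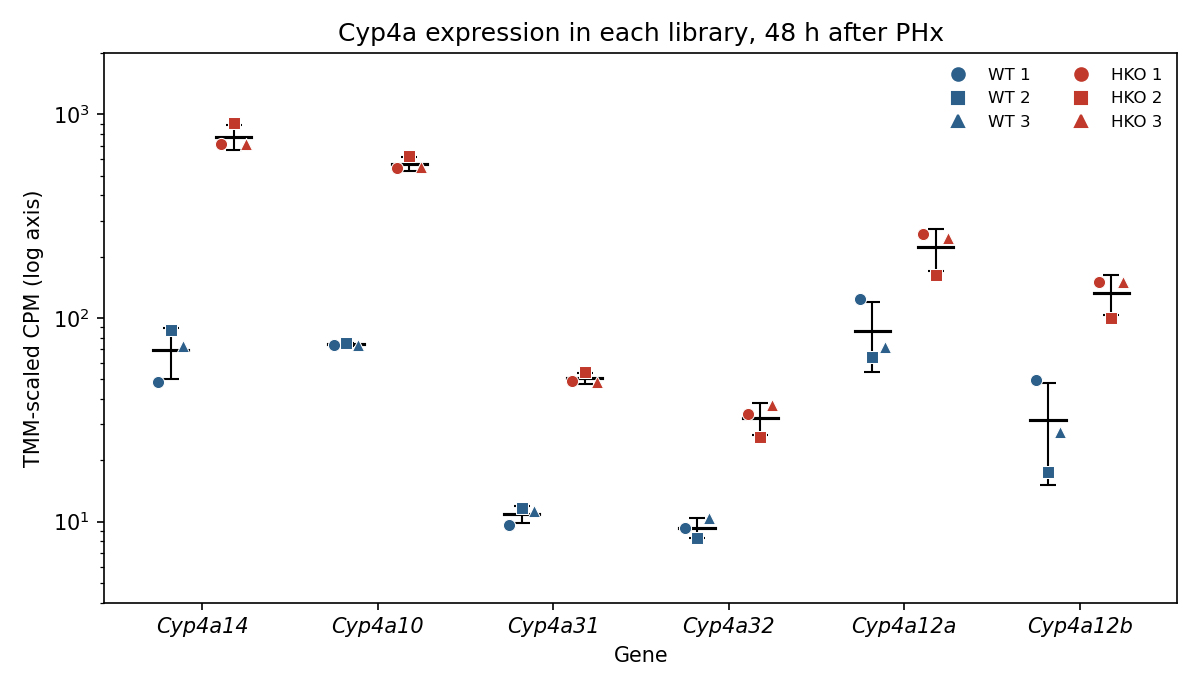
TMM-scaled CPM of each member (log axis) in the 3 WT libraries (blue) and the 3 HKO libraries (red), with marker shapes for the replicate number. Horizontal bars are means and error bars are SDs (n = 3). No red point lies at or below a blue point of the same gene, and the gap is widest for Cyp4a14 (777 against 69.5 CPM).

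Cyp4a14 encodes a PPAR-alpha-inducible hydroxylase of medium-chain fatty acids. It was at 717, 902 and 713 CPM in HKO 1, 2 and 3 and at 48.4, 87.0 and 73.0 CPM in WT 1, 2 and 3. HKO 2 was the highest library and WT 1 the lowest, and the groups were far apart. The means were 777 ± 108 CPM in HKO against 69.5 ± 19.5 CPM in WT (SD, n = 3). The log2 fold change was 3.48 (SE 0.23, adjusted p = 0.000207 by edgeR), a fold with a 95% interval of 7.72 to 16.2. It ranked 28 of the 12556 genes by log2 fold change, counted from the highest. Without HKO 2 it was 3.36. Because Cyp4a14 shares almost no stretch of 50 bases or more with another gene (0.235% of them, with the pseudogene Cyp4a30-ps), few of its reads could match another annotated gene.

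Cyp4a10, a lauric acid hydroxylase and the other classical PPAR-alpha target of the family, had the tightest WT values. It was at 544, 625 and 548 CPM in HKO 1, 2 and 3 and at 73.3, 75.3 and 73.8 CPM in WT 1, 2 and 3. The WT libraries thus differed by about 2 CPM, and every HKO library was more than 7-fold above them. The means were 572 ± 45.3 and 74.1 ± 1.02 CPM (SD, n = 3), and the log2 fold change was 2.95 (SE 0.10, adjusted p = 2.10e-05 by edgeR). Among all genes tested it had the second smallest p-value. The 95% interval of its fold was 6.54 to 9.12, and without HKO 2 the log2 fold change was 2.88.

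Cyp4a31 and Cyp4a32 are close copies of Cyp4a10 with much lower counts. Cyp4a31 was at 49.2, 54.1 and 48.6 CPM in HKO 1, 2 and 3 and at 9.67, 11.6 and 11.3 CPM in WT 1, 2 and 3. Its means were 50.6 ± 3.05 and 10.9 ± 1.05 CPM (SD, n = 3), and the log2 fold change was 2.22 (SE 0.12, adjusted p = 0.000122 by edgeR) and 2.17 without HKO 2. In both genotypes its libraries lay close together. Cyp4a32 was at 33.8, 26.1 and 37.3 CPM in HKO 1, 2 and 3 and at 9.28, 8.31 and 10.4 CPM in WT 1, 2 and 3. Its means were 32.4 ± 5.72 and 9.32 ± 1.03 CPM (SD, n = 3), and the log2 fold change was 1.80 (SE 0.16, adjusted p = 0.000509 by edgeR) and 1.93 without HKO 2. Unlike Cyp4a10 and Cyp4a31, this copy was lowest among the HKO libraries in HKO 2. The increase in Cyp4a31 amounted to 7.99% of the increase in Cyp4a10, and that in Cyp4a32 to 4.63%, each in CPM. Whether reads of Cyp4a10 assigned to its copies contribute to these increases was not tested. A sum over the trio does not depend on the split within it if each shared read was counted once, which is not known. That sum averaged 655 ± 43.0 CPM in HKO against 94.3 ± 1.76 CPM in WT (SD, n = 3), and the log2 fold change was 2.80 (SE 0.10, adjusted p = 2.55e-05 by edgeR).

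The Cyp4a12 genes varied more between libraries than the other members did. Cyp4a12a, the enzyme known in male mice as a main source of 20-HETE, was at 258, 162 and 247 CPM in HKO 1, 2 and 3 and at 124, 64.5 and 71.7 CPM in WT 1, 2 and 3. The gap between the lowest HKO library (HKO 2) and the highest WT library (WT 1) was the narrowest of the family in proportion. Its means were 222 ± 52.2 and 86.7 ± 32.4 CPM (SD, n = 3), and the log2 fold change was 1.36 (SE 0.28, adjusted p = 0.0116 by edgeR). The 95% interval of its fold was 1.65 to 3.99. Without WT 3 this call was lost (log2 fold change 1.24, adjusted p = 0.0577 by edgeR), and without HKO 2 the log2 fold change was 1.54. Cyp4a12b, its near-identical copy, was at 150, 99.4 and 150 CPM in HKO 1, 2 and 3 and at 49.4, 17.6 and 27.4 CPM in WT 1, 2 and 3. Again HKO 2 was the lowest HKO library and WT 1 the highest WT library. Its means were 133 ± 29.3 and 31.5 ± 16.3 CPM (SD, n = 3), and the log2 fold change was 2.08 (SE 0.36, adjusted p = 0.00619 by edgeR) and 2.26 without HKO 2. The sum of the Cyp4a12 copies, the safer value if each shared read was counted once, averaged 356 ± 81.5 CPM in HKO against 118 ± 48.5 CPM in WT (SD, n = 3). Its log2 fold change was 1.59 (SE 0.29, adjusted p = 0.00830 by edgeR). For each member and each sum, the two-sided exact permutation p over the libraries was 0.1, the smallest that 3 against 3 allows.

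Added together, the 6 genes summed to 1752, 1869 and 1745 CPM in HKO 1, 2 and 3 and to 314, 264 and 268 CPM in WT 1, 2 and 3. This was 0.175% to 0.181% of all counts in HKO and 0.0254% to 0.0332% in WT. The log2 fold change of the total was 2.67 (SE 0.12, adjusted p = 6.89e-05 by edgeR). The total was steadier across the HKO libraries than the members were. HKO 2, which had the lowest Cyp4a12a, Cyp4a12b and Cyp4a32, had the highest Cyp4a14 and Cyp4a10.

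The make-up of the family also differed between the HKO and WT libraries, for every member but Cyp4a12b. Cyp4a14 took 40.9%, 48.3% and 40.9% of the family's counts in HKO 1, 2 and 3 and 15.4%, 32.9% and 27.3% in WT 1, 2 and 3. Cyp4a12a took 14.7%, 8.69% and 14.2% in HKO 1, 2 and 3 and 39.5%, 24.4% and 26.8% in WT 1, 2 and 3. Thus the share of Cyp4a14 was higher in every HKO library than in any WT library, and that of Cyp4a12a lower. These are shares of counts, not corrected for gene length, so they compare a gene between libraries and not the genes with each other. Cyp4a10 took between 31% and 33.4% in HKO and 23.4% to 28.5% in WT. Cyp4a31 and Cyp4a32 each took less than 5% in every library. The share of Cyp4a12b overlapped between the groups, at 5.32% to 8.59% in HKO and 6.65% to 15.7% in WT.

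**Figure D3:**
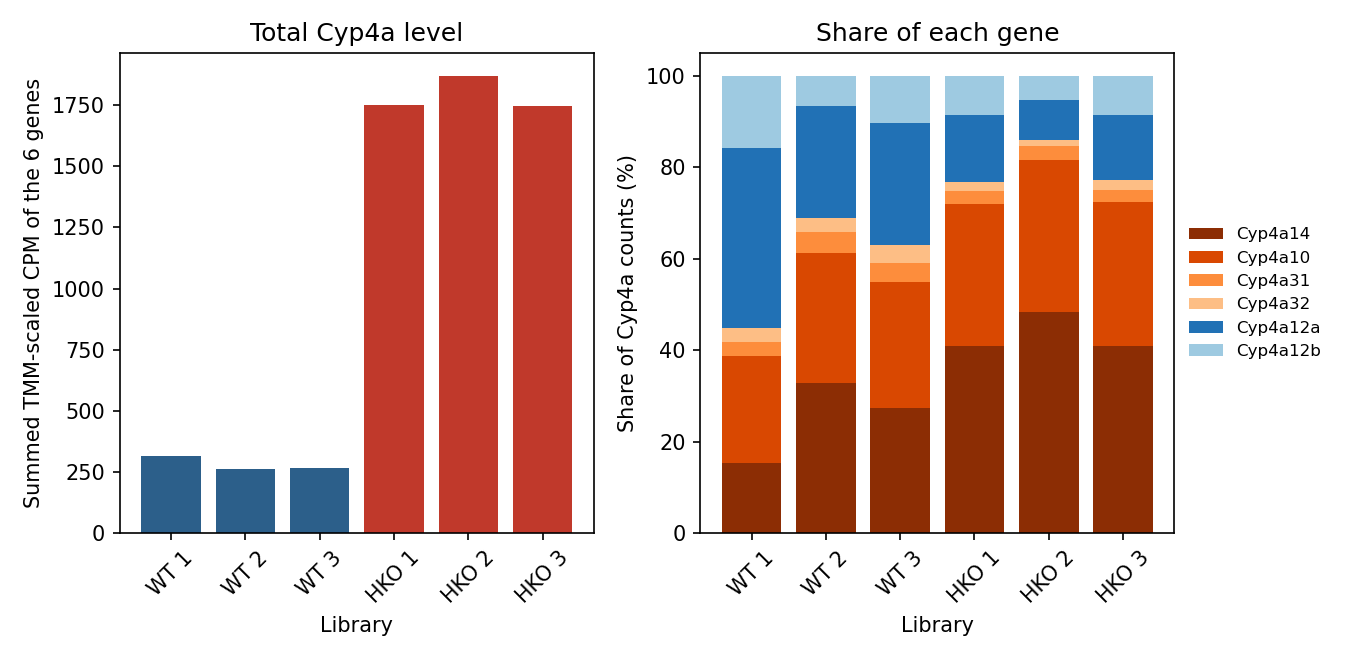
Left, the summed TMM-scaled CPM of the 6 genes in each library. Right, the percentage of the family's counts in each gene. Totals lie between 1745 and 1869 CPM in HKO and between 264 and 314 CPM in WT, and the Cyp4a12a share (dark blue) is below 15% in each HKO library and above 24% in each WT library.

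Whether the members differed in how far they rose was tested on ratios within each library, which need no scaling between libraries. The ratio of Cyp4a14 to Cyp4a10 was 1.32, 1.44 and 1.3 in HKO 1, 2 and 3 and 0.660, 1.16 and 0.990 in WT 1, 2 and 3, so that the mean log2 ratio was higher by 0.57 in HKO. The ratio of the Cyp4a10, Cyp4a31 and Cyp4a32 sum to the Cyp4a12a and Cyp4a12b sum was 1.54, 2.69 and 1.60 in HKO 1, 2 and 3 and 0.533, 1.16 and 0.963 in WT 1, 2 and 3, a log2 difference of 1.16. Within each pair of gene groups the HKO and WT ratios did not overlap. Cyp4a31 to Cyp4a10 was 0.0867 to 0.0905 in HKO and 0.132 to 0.154 in WT, a log2 difference of -0.72. Cyp4a32 to Cyp4a10 was 0.0418 to 0.0680 in HKO and 0.110 to 0.141 in WT, a log2 difference of -1.16. Each of these 4 ratios had a two-sided exact permutation p of 0.1, adjusted 0.1, the smallest this design allows, so none can pass 0.05. Without HKO 2 the 4 differences were 0.52, 0.90, -0.71 and -0.95. Without WT 1, the first fell to 0.34 and the second to 0.83. The ratio of Cyp4a12b to Cyp4a12a, added after the values were seen, was 0.583 to 0.612 in HKO and 0.272 to 0.399 in WT, and rests on reads that are hard to assign.

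Levels can be compared between genes only per length, for which the deposited FPKM (counts scaled by gene length and by the library total) was used. In HKO the FPKM was 256 to 294 for Cyp4a14, 195 to 204 for Cyp4a10, 62.7 to 109 for Cyp4a12a, 38.8 to 64.9 for Cyp4a12b, 13.3 to 21.1 for Cyp4a32 and 11.4 in each library for Cyp4a31. The ranges of Cyp4a12a and Cyp4a12b overlap in this order, and no other neighbours do. In WT the FPKM was 25.6 to 54.1 for Cyp4a12a, 25.3 to 27.1 for Cyp4a10, 17.8 to 29.2 for Cyp4a14, 7.06 to 21.8 for Cyp4a12b, 4.36 to 5.56 for Cyp4a32 and 2.30 to 2.52 for Cyp4a31. The leading 3 of these overlap, and Cyp4a12b overlaps Cyp4a14, while Cyp4a32 and Cyp4a31 stand below. The length behind the FPKM was 4436 bases for Cyp4a31, 2860 for Cyp4a10, 2868 for Cyp4a14 and 1834 for Cyp4a32, longer than their longest coding transcripts in the annotation (2509, 2109, 2496 and 1530 bases). For Cyp4a12a and Cyp4a12b the lengths agreed to the base. With these transcript lengths in place of the deposited ones, the level of Cyp4a31 relative to Cyp4a32 in HKO went from 0.67 to 0.98, and that of Cyp4a14 relative to Cyp4a10 from 1.35 to 1.14. In WT the level of Cyp4a31 relative to Cyp4a32 went from 0.49 to 0.72, and that of Cyp4a12a relative to Cyp4a10 from 1.39 to 1.02. With the transcript lengths the mean of Cyp4a32 stayed above that of Cyp4a31 in both groups, but their HKO ranges overlapped, Cyp4a31 being the higher of the pair in HKO 2.

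Most neighbours of the Cyp4a genes were not called. Of 34 other genes of the table that start within 500 kb of a member, 13 were tested, and 2 were called higher and 1 lower, where 12.1% and 11.2% of all genes were. Mknk1, a kinase of the MAP kinase pathway, changed by 0.50 on the log2 scale (SE 0.13, adjusted p = 0.0282 by edgeR). Faah, which breaks down fatty acid amides, changed by 0.50 (SE 0.09, adjusted p = 0.00733 by edgeR). Stil, a centriole gene of dividing cells, was lower, at a log2 fold change of -1.61 (with SE 0.31, adjusted p = 0.0100 by edgeR). The changes of Mknk1 and Faah were smaller than that of any member. That of Stil was larger in size than the change of Cyp4a12a (1.36) and smaller than those of the other members. The other tested neighbours were Cmpk1, Pdzk1ip1, Cyp4b1, Efcab14, Atpaf1, Mob3c, Nsun4, Uqcrh, Lrrc41 and Rad54l, with log2 fold changes from -0.96 (Rad54l) to 1.18 (Cyp4b1). Cyp4b1, the nearest P450 gene beyond Cyp4a32, was at 3.55, 13.8 and 3.74 CPM in HKO 1, 2 and 3 against 2.89, 2.81 and 3.54 CPM in WT 1, 2 and 3, so its difference came mainly from HKO 2 (adjusted p = 0.140 by edgeR). The 9 other Cyp4 genes and pseudogenes and antisense genes in the window, among them Cyp4a29, Cyp4a30b and Cyp4x1, had no count in any library.

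**Figure D4:**
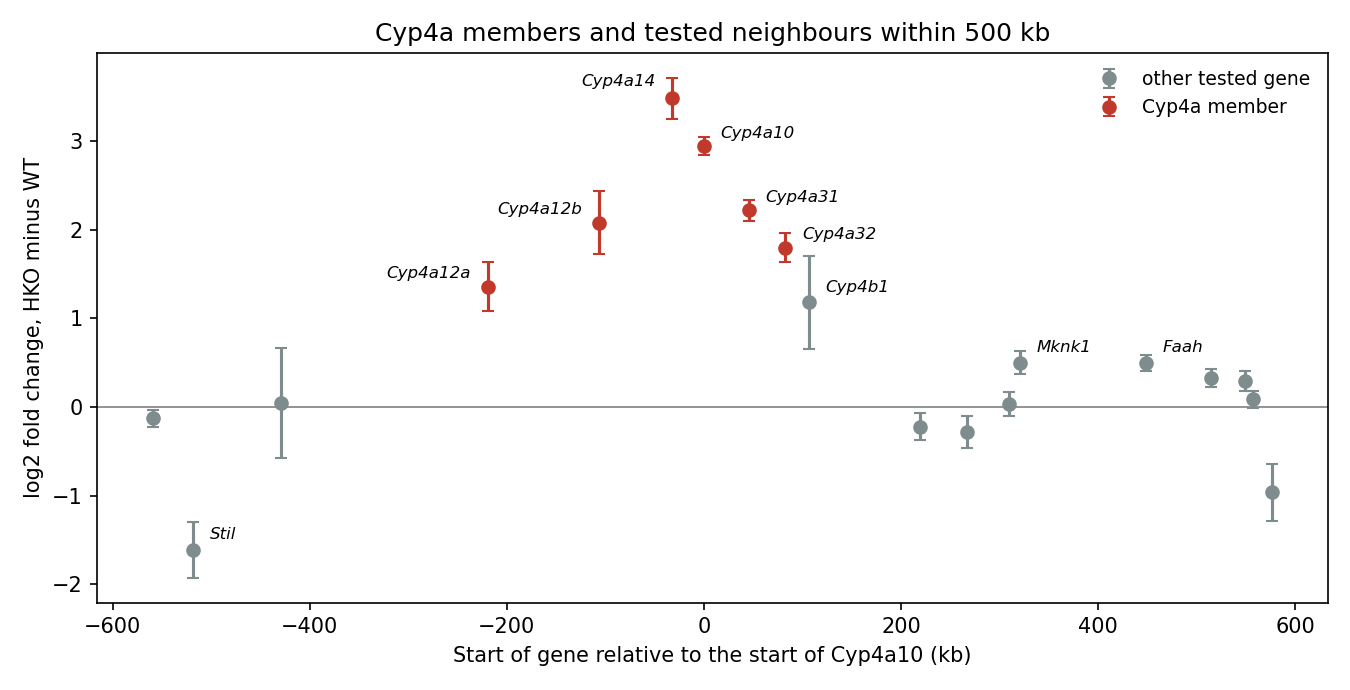
log2 fold change (HKO minus WT, error bars are SEs) of the members (red) and of the other tested genes within 500 kb (grey), against the distance of each gene's lower coordinate from that of Cyp4a10 in kb. The members lie between 1.36 and 3.48, and the called neighbours at 0.50 (Mknk1 and Faah) and -1.61 (Stil).

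Elsewhere in the Cyp4 family, 2 of 7 tested genes were called higher, where 12.1% of all genes were. None was lower, and the median log2 fold change was 0.01. Both called genes belong to the Cyp4f group, which hydroxylates long-chain fatty acids and eicosanoids. Cyp4f15 was at 124, 104 and 131 CPM in the HKO libraries, all above the 60.4, 62.7 and 58.6 CPM of WT (log2 fold change 0.98, SE 0.11, adjusted p = 0.00109 by edgeR). Cyp4f13 rose (log2 fold change 0.77, SE 0.12, adjusted p = 0.00378 by edgeR). Without HKO 2 the counts were 2 higher and 1 lower.

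Of PPAR-alpha and 20 genes that act with or on it, 3 were called higher and none lower, near the 12.1% of all genes. Ppara itself was at 44.0, 75.1 and 86.2 CPM in HKO 1, 2 and 3 and at 32.3, 51.3 and 44.9 CPM in WT 1, 2 and 3, which overlap (log2 fold change 0.68, SE 0.26, adjusted p = 0.0976 by edgeR). Rxra, its partner on DNA, was at a log2 fold change of 0.28 (with SE 0.11, adjusted p = 0.108 by edgeR), so neither receptor gene was called. The genes called were Creb3l3, a liver transcription factor active in fasting (log2 fold change 0.65, adjusted p = 0.00366 by edgeR), Lpin1 (2.34, adjusted p = 0.0122) and Ppargc1a (0.97, adjusted p = 0.0195), whose products act as coactivators of PPAR-alpha. The Ppargc1a call was lost without HKO 3 and without WT 3. Without HKO 1, 5 of the 21 were called higher, and without any other library 2 to 4 were.

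Of 57 tested genes known as PPAR-alpha targets, 43 were called higher (75.4%, against 12.1% of all genes) and none lower. Their median log2 fold change was 1.0. With 1 library left out the number higher was between 34 (without WT 3) and 44 (without HKO 2). Plin4, a lipid droplet coat protein, went from 3.44 ± 0.233 to 24.0 ± 0.587 CPM (SD, n = 3), and its log2 fold change was 2.80 (SE 0.12, adjusted p = 4.97e-05 by edgeR). Its exons overlap Hdgfl2 on the opposite strand, and the protocol mentions no strand marking. Reads from the overlapping stretch cannot be told apart, which makes the Plin4 value uncertain. Mgll, the monoacylglycerol lipase, rose by 1.68 on the log2 scale, and Decr2, a peroxisomal reductase of unsaturated fatty acids, by 1.36 (adjusted p = 0.000183 and 0.000192 by edgeR). Exons of Mgll overlap a predicted antisense gene, so its value is uncertain too. Cyp4a14 and Cyp4a10 lay above the list's median by more than 1.9 log2 units, and Cyp4a12a by 0.36. Some listed targets, named after their values were seen, rose further. Cidec (4.32) was above Cyp4a14 (3.48), and Acot3 (3.31), Cpt1b (3.22) and Fgf21 (2.99) were above Cyp4a10 (2.95). Their WT means were low, at 1.36, 2.25, 0.897 and 0.591 CPM in that order. Exons of Acot3 and of Cpt1b each overlap another protein-coding gene on the same strand, so the values of Acot3 and Cpt1b are uncertain. The other listed targets rose less than Cyp4a10 or were not higher.

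Among the enzymes that serve omega hydroxylation and use its products, more were called higher than lower. This list shares genes such as Ehhadh and Aldh3a2 with the targets above. In it, 13 of 24 tested were called higher (54.2%, against 12.1% of all genes). Called lower were 2 (8.33%, against 11.2% of all genes), and the list's median log2 fold change was 0.56. With a library left out, 10 to 13 were higher and 1 lower, or 3 lower without WT 1. Por, the reductase that feeds electrons to every microsomal P450, was at 1033, 836 and 974 CPM in HKO 1, 2 and 3 and at 294, 174 and 188 CPM in WT 1, 2 and 3. The groups did not overlap, and its log2 fold change of 2.12 (SE 0.21, adjusted p = 0.000743 by edgeR) was close to that of Cyp4a31 and Cyp4a12b. Cyb5a, the microsomal cytochrome b5, rose by 1.02 on the log2 scale (adjusted p = 0.000916 by edgeR), while the mitochondrial form Cyb5b had -0.66 (adjusted p = 0.00343). Downstream, the fatty aldehyde dehydrogenase Aldh3a2 rose by 2.24 on the log2 scale and the peroxisomal enzyme Ehhadh, which acts on dicarboxylic acids, by 2.21 (adjusted p = 0.00134 and 0.000298 by edgeR). Aldh3a2 is named beside the rule for its place in the pathway, after its value was seen. Adh4, an alcohol dehydrogenase, was lower (log2 fold change -0.75, adjusted p = 0.0284 by edgeR), a call that was kept in only 1 of the 6 fits with a library left out.

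**Figure D5:**
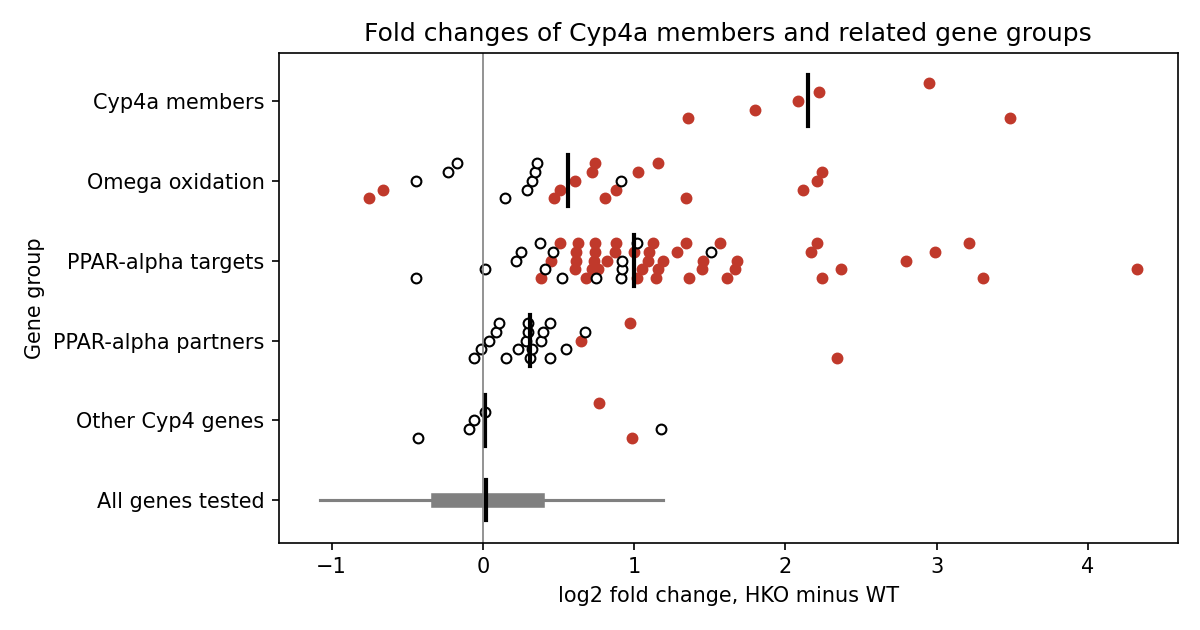
log2 fold changes (HKO minus WT) of the tested genes of 5 groups, with filled points for called genes, open points for the rest and a black bar at each median. The bottom row gives the median, the quartiles (thick) and the central 90% (thin) of all 12556 genes tested. All Cyp4a members lie to the right of 1.3, and the PPAR-alpha targets centre on 1.0.

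Genes of the wider arachidonic acid pathway did not move together. Of 24 tested, 6 were called higher (25%, against 12.1% of all genes) and 5 lower (20.8%, against 11.2% of all genes). The median log2 fold change was 0.01. Ephx2, the soluble epoxide hydrolase (log2 fold change 1.44, adjusted p = 0.000733 by edgeR), and the phospholipase Pla2g6 (1.21, adjusted p = 0.000967) were higher. The P450 genes Cyp2c70 (-0.83, adjusted p = 0.00195 by edgeR) and Cyp2j6 (-0.64, adjusted p = 0.00272) and the phospholipase-like Pla2g12b (-0.65, adjusted p = 0.00660) were lower.

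Because the Cyp4a12 genes are male-biased in mouse liver, they were set beside 28 other male-biased genes. Of these, 4 were called higher (14.3%, near the 12.1% of all genes) and 9 lower (32.1%, against 11.2% of all genes). Their median log2 fold change was 0.07, and 2 of 2 Cyp4a12 genes were higher. Cyp2d9 was at 1287, 790 and 1178 CPM in HKO 1, 2 and 3 and at 503 to 532 CPM in WT, so that, like Cyp4a12a, it was lowest among HKO in HKO 2. Its log2 fold change was 1.07 (SE 0.18, adjusted p = 0.00581 by edgeR). Moxd1 rose by 3.50 on the log2 scale (adjusted p = 0.00676 by edgeR). In the other direction, Selenbp2 fell by 2.82 on the log2 scale (adjusted p = 0.000214 by edgeR), the steroid dehydrogenase gene Hsd3b5 by 2.20 (adjusted p = 0.00331) and Nudt7 by 1.0 (adjusted p = 0.00355). Of 19 tested female-biased genes, 7 were called higher (36.8%) and 1 lower (5.26%), with a median log2 fold change of 0.91. Those with the smallest adjusted p were Fmo2 (3.47), Cyp2a4 (7.75) and Acot3 (3.31), the last also a PPAR-alpha target (adjusted p = 0.000207, 0.000298 and 0.000651 by edgeR). Exons of Cyp2a4 and Acot3 overlap predicted antisense genes and those of Cyp2d9 a pseudogene. Those of Acot3 also overlap a protein-coding gene on the same strand. Cyp2a4, Acot3 and Cyp2d9 have close copies as well, so their values are uncertain. Without HKO 2, the library with Xist, the counts were 7 higher and 8 lower for the male-biased genes and 7 higher and 4 lower for the female-biased genes, whose median then was 0.24. Leaving out WT 3 gave 3 higher and 6 lower among the male-biased genes and 4 higher and 0 lower among the female-biased genes. Cyp4a12a and Cyp4a12b were called higher without HKO 2 too (adjusted p = 0.00383 and 0.00298 by edgeR).

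Marker lists of liver zones and other cells are given with the range of their counts when each library was left out in turn. With all libraries, 12.1% of all genes tested were called higher and 11.2% lower. Kupffer cell and macrophage markers were called higher in 13 of 14 (9 to 13) and lower in 1 (Mpeg1, named after its value was seen, in each of those fits), and their summed level was 365 to 546 CPM in HKO and 402 to 427 CPM in WT. Of 20 periportal genes, 10 were higher (6 without WT 3 and 7 to 10 without any other library) and 1 lower, namely Sox9 (0 to 2), with sums of 20024 to 24746 CPM in HKO and 10242 to 15531 CPM in WT. Of 22 pericentral genes, 3 were higher, near the 12.1% of all genes, and 4 lower. These counts turned on single libraries, with 11 higher and 4 lower without WT 1, 0 higher and 1 lower without WT 3, and 1 to 2 higher and 1 to 4 lower without any other library. Their sum was 12878 CPM in WT 1, 6016 CPM in WT 2 and 8026 CPM in WT 3, and 12330 to 14676 CPM in HKO, so WT 1, the WT library with the most Cyp4a12a and the least Cyp4a14, also had the largest pericentral sum of WT. B and plasma cell markers were higher in 3 of the 3 tested of 8 (3 in each fit), with sums of 20.2 to 27.4 CPM in HKO and 1.11 to 2.36 CPM in WT. Cholangiocyte markers were higher in 1 and lower in 3 of 6, Sox9 itself among the lower ones (1 lower without WT 2 or WT 3). The cholangiocyte markers summed to 314 to 448 CPM in HKO and 226 to 380 CPM in WT, which overlap. Growth hormone axis genes were higher in 4 and lower in 1 of 16 (2 higher and 0 lower without WT 3, and 3 to 6 higher and 0 to 1 lower without any other library). Endothelial markers were higher in 1 of 12, and in 4 without HKO 1. Stellate cell markers were higher in 4 of 12, in 1 without WT 1 or WT 2 and in 0 without WT 3. Both sums were highest in HKO 2 (640 and 690 CPM, against 136 to 248 and 115 to 209 CPM in the others). The part of zonation, cell make-up or sex in the Cyp4a values was not tested.

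Across the 6 libraries, the genes outside the Cyp4 family whose log-CPM followed Cyp4a14 most closely were Myo1d, Tcf7l1, Sulf2, Brpf1 and 1810055G02Rik, with Pearson r from 0.997 to 0.998. Those closest to Cyp4a12a were Rbm38, Mafg, Rabggta, Morc3 and Prune, with r from 0.994 to 0.998. These r values are a description over 6 points that share the split between the genotypes. Of the 10 genes, Brpf1 and Rbm38 were not called. The genes were picked for likeness over these same libraries, so what they share with Cyp4a14 or Cyp4a12a is no separate result. 1810055G02Rik (72.5 ± 1.31 CPM in HKO against 21.3 ± 3.60 CPM in WT) was lowest in WT 1 as Cyp4a14 was. Among HKO it was lowest in HKO 2 (74.0, 71.5 and 72.1 CPM in HKO 1, 2 and 3), where Cyp4a14 was highest. Mafg (65.8 ± 7.98 CPM in HKO against 39.2 ± 6.05 CPM in WT) was highest among WT in WT 1 and lowest among HKO in HKO 2 as Cyp4a12a was (SD, n = 3). Among the members themselves, r ran from 0.81 (Cyp4a14 with Cyp4a12a) to 0.998 (Cyp4a10 with Cyp4a31).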

How the data were processed

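Liver RNA was sequenced in 6 libraries, 3 HKO and 3 WT, grouped by the sample titles. The authors deposited 1 table with a raw read count and an FPKM for each gene and library, per the file headers. HISAT2 2.0.4 and StringTie 1.3.0, with the builds mm10 and GRCm38.p4, are named in the submitters' processing notes, without roles or settings. Here the counts were filtered with filterByExpr, scaled by TMM and tested with edgeR 4.0.16 (quasi-likelihood F-test on genotype, R 4.3.3), adjusted by Benjamini-Hochberg over 12556 genes and called below 0.05. The test was checked on simulated counts. CPM are TMM-scaled, and log2 fold changes are HKO minus WT. Ratios and single values were tested by exact permutation. Coding sequences came from GENCODE M21, compared with Biopython 1.88. No strand-marking step is described in the protocols.

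The members and the gene lists were chosen with earlier results of these data known, and the rises of Cyp4a10, Cyp4a14 and Cyp4a31 were among those results. Genes named were all members, all tested neighbours, up to 3 called genes with the smallest adjusted p per list and direction for the lists described in detail, Ppara, Rxra, Ppargc1a and Por, and the 5 genes most correlated with Cyp4a14 and with Cyp4a12a. Others named are library or marker checks. A gene that the rule would name is not reported here. Alternatives were RLE scaling, TMM without mitochondrial genes, DESeq2 1.42.0, limma-voom 3.58.1, no filter, at least 10 counts in every library, a replicate block, each library left out and, added later, transcript lengths in place of FPKM and list counts with a library left out.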

Additional observations from a re-analysis of the deposited data

How the results depend on the processing

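In 12 of 13 alternatives all 6 members were called higher, and without WT 3 the number was 5, Cyp4a12a having lost its call (adjusted p = 0.0577 by edgeR). Log2 fold changes of the members stayed between 3.27 and 3.68 for Cyp4a14, 2.88 and 2.97 for Cyp4a10, 2.13 and 2.27 for Cyp4a31, 1.68 and 1.93 for Cyp4a32, 1.18 and 1.70 for Cyp4a12a and 1.79 and 2.56 for Cyp4a12b. With each library left out in turn, the genes called numbered 722 to 1589 higher and 682 to 1546 lower, the fewest without WT 3, and PPAR-alpha targets called lower numbered 0 to 1. DESeq2 also called 1 target lower. That gene was Crot, named after its value was seen (log2 fold change -0.45, adjusted p = 0.0470 by DESeq2, and -0.62, adjusted p = 0.00969 by edgeR, without WT 1).

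Whether the replicate numbers pair the libraries is not stated in the labels. Over all genes tested, deviations of same-numbered libraries from their group means correlated at -0.0019, 0.0025 and 0.072. With 3 libraries a group, these values cannot exclude a pairing. With a replicate block, 1245 genes were higher and 1115 lower, and all 6 members were called. The block lowered the SE of Cyp4a12a from 0.28 to 0.16 and that of Cyp4a12b from 0.36 to 0.20. It also lowered those of Cyp4a14 and Cyp4a32, and raised those of Cyp4a10 (0.10 to 0.13) and Cyp4a31. Taken as pairs of the same replicate number (a replicate block), the 4 ratios kept their log2 differences of 0.57, 1.16, -0.72 and -1.16, each with an exact permutation p of 0.25, the smallest that 3 pairs allow. Depth limited none of the member values, whose lowest count was 148. The split between Cyp4a12a and Cyp4a12b, and between Cyp4a10, Cyp4a31 and Cyp4a32, is limited by their identical stretches, and 3 libraries a group limit every test of a ratio.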
